A study of Homo sapiens with 6 samples.

Results

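The SLC2A genes encode the facilitative sugar transporters known as GLUT proteins. The members were chosen by gene symbol with earlier results of these data known. They were 9 of the 17631 genes in the deposited tables: SLC2A1, SLC2A3, SLC2A4, SLC2A6, SLC2A8, SLC2A10, SLC2A12, SLC2A13 and SLC2A14. The tables hold 13 SLC2A transporter symbols, so the members are not the whole family. The data came from 6 RNA-seq libraries of MDA-MB-231, an established human cell line from a triple-negative breast tumour, with 3 libraries from cells given vehicle and 3 from cells given 30 µM PDBAG1, both collected after 24 h. The labels name breast cancer tissue beside the cell line as the source. PDBAG1 is a synthetic peptide that joins a cell-penetrating sequence to a fragment of the enzyme GPD1, and the study used these libraries to ask how the transcriptome responded to it. What the vehicle contained and whether the libraries of a group came from separate cultures are not given in the sources used here, so p values measure only the spread between libraries, which may be technical. The libraries cover only this line.

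GLUT proteins move hexoses down their concentration gradient without using energy. GLUT1 (SLC2A1) supplies basal glucose to most cells, GLUT3 (SLC2A3) has a high affinity for glucose and is best known from neurons, and GLUT4 (SLC2A4) is moved to the surface of muscle and fat cells by insulin. Several further members sit mainly in internal membranes, and the SLC2A13 product carries myo-inositol together with protons rather than glucose. In tumours SLC2A1 and SLC2A3 are well known targets of hypoxia signalling, and once inside the cell glucose is trapped by hexokinases.

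Values are TPM, a transcript abundance scaled for transcript length and for the library total, so that levels can be compared between genes. TPM keeps no sequencing depth, so the depth of the libraries is unknown and no counting error can be given. Between 12392 and 12611 genes per library had at least 1 TPM, and no library stood apart from its group, since the SD of log2 differences between a pair of libraries was 0.14 to 0.18 within groups and 0.28 to 0.30 between them. The line's markers VIM, CD44, CAV1, AXL and KRT18 were at 309 TPM or more in every library, and of 5 genes listed as low in it 2, PGR and CDH1, stayed under 1 TPM. The other three did not, with ERBB2 at 23.6 to 25.4, EPCAM at 3.92 to 5.78 and ESR1 at 1.96 to 3.38 TPM. Markers of other cell types were mostly low, with the 3 adipocyte markers under 1 TPM throughout. However, summed leukocyte markers ran from 252 to 265 TPM with vehicle and from 306 to 329.9 TPM with PDBAG1, nearly all of it CD68, while PTPRC stayed between 0.86 and 1.41 TPM and CD3E was not analysed here. The 3 endothelial markers summed to 4.11 to 4.40 and to 8.42 to 9.60 TPM, nearly all of it PECAM1, with CDH5 and VWF under 0.5 TPM. The 2 fibroblast markers analysed summed to 1.66 to 2.05 and to 2.40 to 2.55 TPM, with PDGFRA at 0.04 TPM or less. The part of these markers in the transporter results was not tested.

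MDA-MB-231 cells expressed mainly 3 transporter genes. With vehicle, SLC2A1 was the most abundant member at 104 ± 3.58 TPM (SD, n = 3), higher than 90.4% of all genes in the tables. SLC2A6 followed at 25.1 ± 1.87 TPM and SLC2A3 at 23.3 ± 0.484 TPM (SD, n = 3 each), and the ranges of these neighbours overlapped. SLC2A8 stood at 8.98 ± 0.203, SLC2A13 at 3.71 ± 0.283 and SLC2A12 at 2.15 ± 0.412 TPM (SD, n = 3 each), each apart from the next member in the order. SLC2A4, SLC2A10 and SLC2A14 stayed under 1 TPM in every library and were not tested. With PDBAG1 the order changed at one place among the tested genes, because SLC2A3 lay above SLC2A6 in every treated library. In bulk RNA, more transcript per cell and more cells that carry it cannot be told apart.

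**Figure D1:**
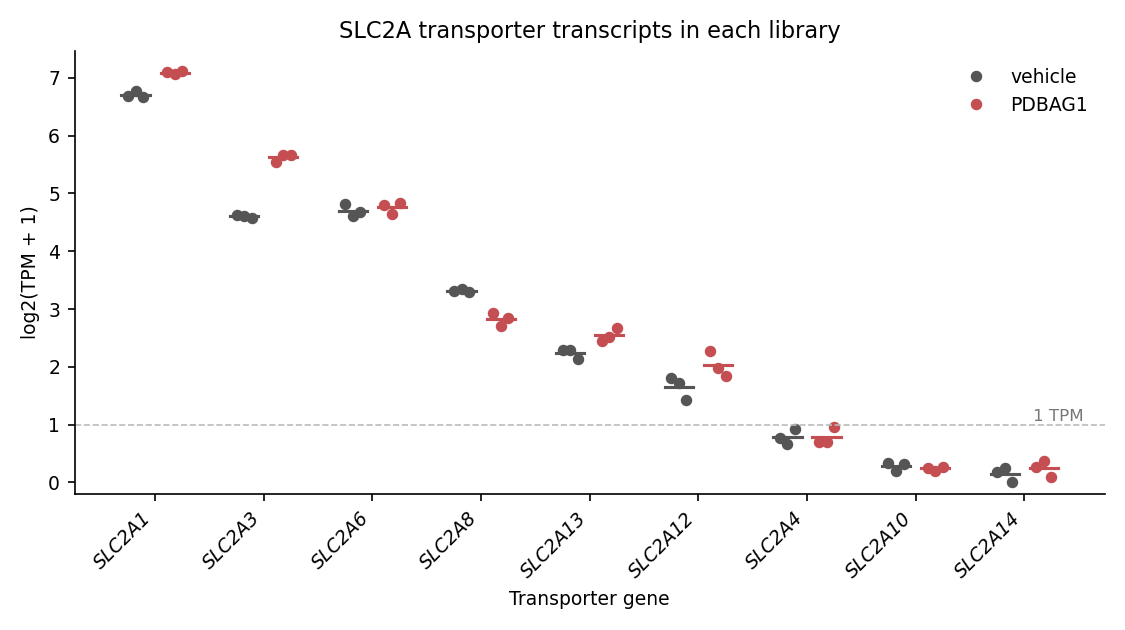
Level of each SLC2A member as log2(TPM + 1), with one point per library (3 vehicle in grey, 3 PDBAG1 in red) and a bar at the mean of each group. SLC2A1, SLC2A3, SLC2A13 and, only just, SLC2A12 were higher and SLC2A8 was lower in every PDBAG1 library than in every vehicle library. SLC2A4, SLC2A10 and SLC2A14 stayed under the dashed line at 1 TPM.

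The 6 members with at least 1 TPM in 3 or more libraries were compared between the groups with limma on the log2(TPM + 1) scale, fitted across 12582 genes with Benjamini-Hochberg adjustment over all of them. At an adjusted p under 0.05, 4 of the 6 members were higher with PDBAG1 and 1 was lower, while 37.6% of all genes tested passed, 21.7% higher and 15.9% lower. With a fold change of at least 1.5 as well, the thresholds the study used, 1 member was higher and none was lower, against 3.34% of all genes tested, 2.86% higher and 0.477% lower. Among those calls 85.7% were higher, and 75.3% under quantile normalisation of the libraries. In 4 of the 6 members the PDBAG1 libraries all lay above the vehicle libraries and in 1 they all lay below, compared with 27.2% and 20.2% of all genes tested, or 47.4% in either direction. The median log2 fold change was 0.35 over the 6 tested members and 0.03 over all genes tested.

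Among the transporters of the cell surface, SLC2A3 changed most. SLC2A3 (chromosome 12, 7919230 to 8019007, minus strand, GRCh38, GENCODE v44) measured 23.7, 23.5 and 22.8 TPM in the vehicle libraries and 45.8, 49.99 and 49.6 TPM in the PDBAG1 libraries. The groups were far apart and the spread within each was small. The log2 fold change was 1.02 (standard error 0.06, limma adjusted p = 1.51e-08), which placed SLC2A3 at rank 69 of the 12582 genes tested when ordered from the largest rise. It was the only member past the 1.5-fold limit.

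SLC2A1 (chromosome 1, 42925353 to 42958893, minus strand) measured 102, 108 and 101 TPM with vehicle and 136, 133 and 137 TPM with PDBAG1. Every treated library was above every control library. The log2 fold change was 0.38 (standard error 0.04, 95% interval 0.29 to 0.48, limma adjusted p = 1.33e-05), a rise that did not reach the 1.5-fold limit. Thus the transporter with the most transcripts rose by a smaller factor than SLC2A3. The ratio of SLC2A1 to SLC2A3 TPM was 4.30, 4.58 and 4.43 with vehicle and 2.96, 2.66 and 2.77 with PDBAG1, with no overlap between groups. An exact permutation test of the log2 ratio (two-sided, n = 3 each) gave p = 0.1, the smallest p that 3 libraries against 3 allow. Groups without overlap always give this value, and the ratio was not among the planned results. An lncRNA annotated on the opposite strand covers 14.7% of the exonic bases of the SLC2A1 canonical transcript, and whether the libraries kept the strand is not given in the sources used here.

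SLC2A14 encodes GLUT14, a near copy of GLUT3 best known from testis, and lies beside SLC2A3 on chromosome 12 (7812512 to 7891148, minus strand). The coding sequences of the canonical transcripts differed at 48 of 1488 aligned bases, an identity of 96.8%, while the next most similar pair, SLC2A1 with SLC2A4, had 70.2%. The longest stretch without a difference was 137 bases. The 90 coding bases below are shown because they hold the most differences of any such window within 1 exon, 8 in all. A read that lies wholly within this window can be assigned only by these positions. Capitals mark the bases that differ. The SLC2A3 bases lie in exon 5 at chr12:7930542-7930631 and the SLC2A14 bases in exon 6 at chr12:7828766-7828855, both on the minus strand of GRCh38.
SLC2A3: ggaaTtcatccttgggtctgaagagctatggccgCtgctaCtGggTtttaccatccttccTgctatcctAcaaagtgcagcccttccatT
SLC2A14: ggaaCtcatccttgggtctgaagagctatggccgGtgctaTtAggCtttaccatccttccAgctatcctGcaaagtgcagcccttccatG

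Of all windows of 50 bases in the SLC2A3 transcript, 23.5% also occurred in SLC2A14 transcripts, and of windows of 100 bases 7.22% did. The submitters' processing notes list RSEM, which divides reads that fit several genes by an estimate, but give its role nowhere, and the methods do not say how such reads were assigned, so the levels of both genes are uncertain to that extent. SLC2A14 was listed at 0.13, 0.19 and 0 TPM with vehicle and at 0.20, 0.30 and 0.07 TPM with PDBAG1, so the groups overlapped near the lower end of the scale. SLC2A3 and SLC2A14 together came to 23.4 ± 0.569 TPM in vehicle libraries against 48.6 ± 2.33 TPM after PDBAG1 (SD, n = 3 each). Adding SLC2A14, listed at 0.30 TPM or less, could change the SLC2A3 difference only slightly. The sum does not show which gene the reads that fit both came from.

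SLC2A4, the insulin-responsive GLUT4 gene (chromosome 17, 7281718 to 7288257, plus strand), was close to the limit of expression. It measured 0.70, 0.59 and 0.89 TPM with vehicle and 0.62, 0.62 and 0.94 TPM with PDBAG1. The groups overlapped, and their means were both 0.727 TPM.

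The members of internal membranes did not move as a group. SLC2A6 (chromosome 9, 133471094 to 133479127, minus strand) encodes GLUT6, which is found on lysosomes. It measured 27.2, 23.6 and 24.5 TPM with vehicle and 26.8, 23.9 and 27.7 TPM with PDBAG1. The groups overlapped over most of their range. The log2 fold change was 0.06 with a 95% interval from -0.10 to 0.21 (limma adjusted p = 0.563), so that a 1.5-fold change in either direction lay outside the interval.

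SLC2A8 (chromosome 9, 127397138 to 127408424, plus strand) encodes GLUT8, a transporter held in late endosomes and lysosomes, and was the member that fell. It measured 8.88, 9.21 and 8.84 TPM with vehicle and 6.62, 5.51 and 6.16 TPM with PDBAG1. The 3 treated libraries lay below the 3 controls. The log2 fold change was -0.49 (standard error 0.09, limma adjusted p = 0.000511), under the 1.5-fold limit. Under quantile normalisation it was -0.59 and just past that limit, which made SLC2A8 a second called member there.

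SLC2A12 (chromosome 6, 133987581 to 134052624, minus strand) encodes GLUT12, first described in a breast cancer line. It measured 2.48, 2.29 and 1.69 TPM with vehicle and 3.84, 2.95 and 2.58 TPM with PDBAG1. The lowest treated library was only just above the highest control. The log2 fold change of 0.38 had a wide error (standard error 0.13, limma adjusted p = 0.0368), and the call was lost without vehicle replicate 2 (0.42), vehicle replicate 3 (0.27), PDBAG1 replicate 1 (0.26) or PDBAG1 replicate 2 (0.41). It was also lost under median-of-ratios scaling (0.36, limma adjusted p = 0.0615) and quantile normalisation (0.29, limma adjusted p = 0.126), and without the expression filter (limma adjusted p = 0.0939). Exons of TBPL1, a gene of the opposite strand picked after this overlap was seen, cover 2852 of the 5572 exonic bases of the SLC2A12 canonical transcript. TBPL1 was at 28.4 ± 1.62 TPM in vehicle and 26.3 ± 2.02 TPM in PDBAG1 libraries (SD over 3 libraries). Unless the libraries kept the strand, reads from these bases cannot be told apart between both genes. SLC2A10 (chromosome 20, 46709649 to 46736347, plus strand), which encodes GLUT10 and is mutated in arterial tortuosity syndrome, lay between 0.15 and 0.27 TPM in all 6 libraries.

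SLC2A13 (chromosome 12, 39755025 to 40106089, minus strand) encodes the proton-coupled myo-inositol transporter HMIT. It measured 3.87, 3.87 and 3.38 TPM with vehicle and 4.43, 4.70 and 5.41 TPM with PDBAG1, with every treated library above the controls. The log2 fold change was 0.31 (standard error 0.10, limma adjusted p = 0.0247). SLC2A13 missed the adjusted p of 0.05 without vehicle replicate 3 (0.26), PDBAG1 replicate 2 (0.33) or PDBAG1 replicate 3 (0.24). It also missed it without the expression filter (limma adjusted p = 0.0578) and under quantile normalisation (0.20, limma adjusted p = 0.0808). The same held in a fit with replicate numbers as a blocking term, the replicate block (limma adjusted p = 0.0538). SLC5A3, which encodes a sodium-coupled myo-inositol transporter, measured 20.2, 15.1 and 16.1 TPM with vehicle and 20.2, 21.5 and 26.5 TPM with PDBAG1. Its groups overlapped, at a log2 fold change of 0.39 (adjusted p in limma = 0.0117). SLC5A3 missed the adjusted p of 0.05 without vehicle replicate 2 (0.31) and without the expression filter (limma adjusted p = 0.0599). Of the 4 tested genes for making or recycling inositol, none passed the limma adjusted p of 0.05, against 37.6% of all genes tested.

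The summed TPM of the 9 members was higher with PDBAG1. It was 169, 171 and 163 TPM in the vehicle libraries and 224, 221 and 229.9 TPM in the PDBAG1 libraries. The groups were well apart, at 168 ± 3.98 and 225 ± 4.41 TPM (SD, n = 3 each), a ratio of 1.34. Of the difference of 57.3 TPM between the means, SLC2A1 made up 55.6% and SLC2A3 43.8%, and SLC2A8 fell by 2.88 TPM. The sum over every SLC2A transporter symbol in the tables, 13 in all, gave the members 95.4% of the total with vehicle and 96.3% with PDBAG1.

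The composition of the sum shifted towards SLC2A3. SLC2A3 took 14.02%, 13.74% and 13.95% of the summed TPM with vehicle and 20.4%, 22.6% and 21.6% with PDBAG1, a gain of 7.62 percentage points between the group means. SLC2A1 kept the largest share, at 61.7% ± 1.35 in vehicle libraries against 60.1% ± 0.395 after PDBAG1 (SD, n = 3 each). The shares of SLC2A1 overlapped between groups although its level did not. SLC2A6 took 14.9% ± 1.14 of the sum with vehicle and 11.6% ± 0.693 with PDBAG1, and SLC2A8 took 5.35% ± 0.0870 and 2.71% ± 0.233 (SD, n = 3 each). For both, every treated library lay below every control, and for SLC2A6 this stands beside a level that overlapped. SLC2A1, SLC2A3 and SLC2A6 together made up 90.5% of the sum with vehicle and 93.3% with PDBAG1. The shares of SLC2A12 and SLC2A13 ranged from 1.03% to 2.35% over all libraries and overlapped between groups, and those of the 3 untested members stayed at 0.545% or less. Shares add up to the same total in each library, so a gain of one member lowers the others.

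**Figure D2:**
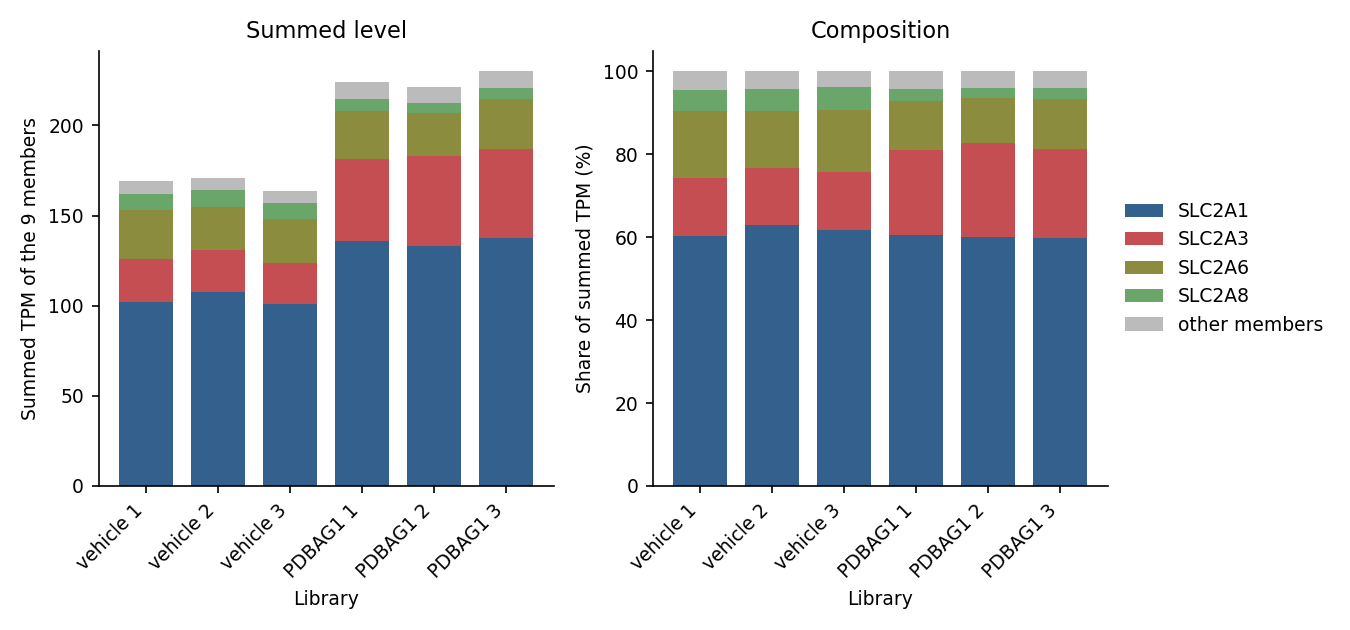
Summed TPM of the 9 SLC2A members in each library (left) and the share of the sum in percent taken by each member (right), with the 5 least abundant members drawn together in grey. The sum lay between 163 and 171 TPM with vehicle and between 221 and 229.9 TPM with PDBAG1, and the SLC2A3 share rose from between 13.74% and 14.02% to between 20.4% and 22.6%.

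The 250 bases before the RefSeq start site (GRCh38.p14) were read for 7 of the 9 members, not for SLC2A3 and SLC2A4, and searched on both strands for short motifs. The core letters that HIF factors recognise were searched as ACGTG with its variant form GCGTG, the E-box of MYC and of MLX partners as CACGTG (it contains the first HIF form on both strands), and the GC box of SP1 as GGGCGG. Of 35116 promoters, 43.2% held a HIF core of either form, 6.34% held the E-box and 42.6% held the GC box. Promoters are shown for SLC2A1, which rose, SLC2A6, whose groups overlapped, and SLC2A8, which fell, at chr1:42958869-42959118 (minus strand), chr9:133479100-133479349 (minus strand) and chr9:127396919-127397168 (plus strand). Capitals mark the HIF core forms and the GC box in either orientation.
SLC2A1: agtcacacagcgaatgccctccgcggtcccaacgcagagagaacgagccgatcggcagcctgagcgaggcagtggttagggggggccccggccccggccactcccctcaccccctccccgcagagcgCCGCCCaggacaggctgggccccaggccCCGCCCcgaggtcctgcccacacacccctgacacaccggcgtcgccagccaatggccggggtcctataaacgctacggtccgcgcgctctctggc
SLC2A6: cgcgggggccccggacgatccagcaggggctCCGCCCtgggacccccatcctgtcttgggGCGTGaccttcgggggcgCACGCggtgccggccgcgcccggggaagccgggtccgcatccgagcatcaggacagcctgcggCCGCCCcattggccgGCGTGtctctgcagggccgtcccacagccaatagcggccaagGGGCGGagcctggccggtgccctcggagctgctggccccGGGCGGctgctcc
SLC2A8: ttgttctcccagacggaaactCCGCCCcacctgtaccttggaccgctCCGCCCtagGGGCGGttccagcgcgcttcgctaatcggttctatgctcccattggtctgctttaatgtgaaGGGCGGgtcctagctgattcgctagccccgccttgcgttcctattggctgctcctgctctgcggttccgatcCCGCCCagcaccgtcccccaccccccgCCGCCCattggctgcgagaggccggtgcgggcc

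SLC2A1 held 0 HIF cores and 2 GC boxes in this window, SLC2A6 held 3 and 4, and SLC2A8 held 0 and 6. SLC2A13 held 2 HIF cores, which are both strands of its 1 E-box, and 5 GC boxes. SLC2A10 held 1 HIF core and 3 GC boxes, SLC2A14 held 1 of each, and SLC2A12 held none of these letters. A match is a description of the sequence only, and no factor binding was measured here.

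Genes that act beside the transporters were listed by function. Of 11 genes for hexose phosphorylation and the polyol pathway, 9 were tested, and 2 rose and 2 fell at a limma adjusted p under 0.05, beside 37.6% of all genes tested, with a median log2 fold change of -0.03. HK1, the hexokinase of most tissues, rose from 168 ± 6.28 to 265 ± 9.60 TPM (SD over 3 libraries), with a log2 fold change of 0.66. HK2, the inducible hexokinase of many tumours, rose from 17.0 ± 0.810 to 31.9 ± 1.41 TPM (SD over 3 libraries), with a log2 fold change of 0.87. Both were past the 1.5-fold limit, so that the changes of both hexokinases lay between those of SLC2A1 and SLC2A3. KHK, the fructose kinase, fell by 0.22 and SORD, which makes fructose from sorbitol, by 0.16 on the log2 scale (limma adjusted p = 0.0437 and 0.0366). Without a library those values were -0.25 to -0.17 for KHK and -0.18 to -0.12 for SORD. Each missed the adjusted p of 0.05 in 5 of the 6 such fits, the exceptions being PDBAG1 replicate 3 for KHK and vehicle replicate 2 for SORD. Both missed it with the replicate block (limma adjusted p = 0.101 for KHK and 0.1 for SORD), and KHK also without the expression filter (limma adjusted p = 0.0807).

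Of 8 other sugar transporters (7 in the tables), 3 were expressed well enough to be tested. SLC5A3 was the 1 past the limma adjusted p of 0.05, against 37.6% of all genes tested. The sodium-glucose cotransporters SLC5A1 and SLC5A2 were at 0.23 TPM or less in every library. SLC50A1, a sugar transporter of the SWEET family, was measured as 98.5 ± 4.17 TPM in vehicle libraries against 102 ± 5.13 TPM after PDBAG1 (SD, n = 3 each).

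All 23 genes for turnover and trafficking of GLUT proteins were tested, and 8 rose and 0 fell at a limma adjusted p under 0.05, where 37.6% of all genes tested passed, 21.7% higher and 15.9% lower, with a median log2 fold change of 0.06. The number past the threshold was 4 without vehicle replicate 2 and 5 without vehicle replicate 3 or PDBAG1 replicate 3. ARRDC3, an arrestin-domain protein of the TXNIP family, changed most, from 22.3, 23.9 and 21.6 TPM to 38.4, 44.2 and 43.2 TPM, a log2 fold change of 0.86 (adjusted p in limma = 3.97e-07). TXNIP, which draws GLUT1 into the cell and lowers glucose uptake, rose from 50.4 ± 2.24 to 64.2 ± 2.78 TPM (SD over 3 libraries), with a log2 fold change of 0.34. STX4, the plasma membrane syntaxin of GLUT4 vesicles, rose by 0.25 on that scale. For SORT1, a sorting receptor of the same vesicles, it was 0.22 (limma adjusted p = 0.0205). SORT1 missed the adjusted p of 0.05 without vehicle replicate 2 (0.22), vehicle replicate 3 (0.19) or PDBAG1 replicate 3 (0.15), and without the expression filter (limma adjusted p = 0.056).

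Of 16 transcription factors known at SLC2A promoters, 8 rose and 2 fell at a limma adjusted p under 0.05, against 37.6% of all genes tested in either direction, with a median log2 fold change of 0.16. On the log2(TPM + 1) scale none was past the 1.5-fold limit, but with a pseudocount of 0.1 KLF15 (-0.76) and MEF2C (0.66) were, and KLF15 (-0.66) also was under quantile normalisation. EPAS1, which encodes HIF-2alpha, rose from 35.2 ± 0.946 to 52.7 ± 3.36 TPM (SD over 3 libraries), with a log2 fold change of 0.57 (adjusted p in limma = 5.42e-06). MEF2D, of the MEF2 family that acts on SLC2A4 in muscle, rose from 16.5 ± 0.894 to 24.8 ± 0.0231 TPM (SD over 3 libraries), with a log2 fold change of 0.56. KLF15, another activator of SLC2A4, fell from 3.02 ± 0.206 to 1.75 ± 0.323 TPM (SD over 3 libraries), with a log2 fold change of -0.55 (adjusted p in limma = 0.00207). SLC2A4 itself stayed under 1 TPM, as given above. HIF1A, picked after its value was seen, was at 355 ± 21.6 and 389 ± 19.5 TPM (SD, n = 3 each), and its log2 fold change of 0.13 lost the call in 4 of the 6 fits that left out a library, without vehicle replicate 2 (0.11), vehicle replicate 3 (0.11), PDBAG1 replicate 2 (0.13) or PDBAG1 replicate 3 (0.10). It was also lost without the expression filter (limma adjusted p = 0.108), with median-of-ratios scaling (limma adjusted p = 0.0669) and with the replicate block (limma adjusted p = 0.0645).

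**Figure D3:**
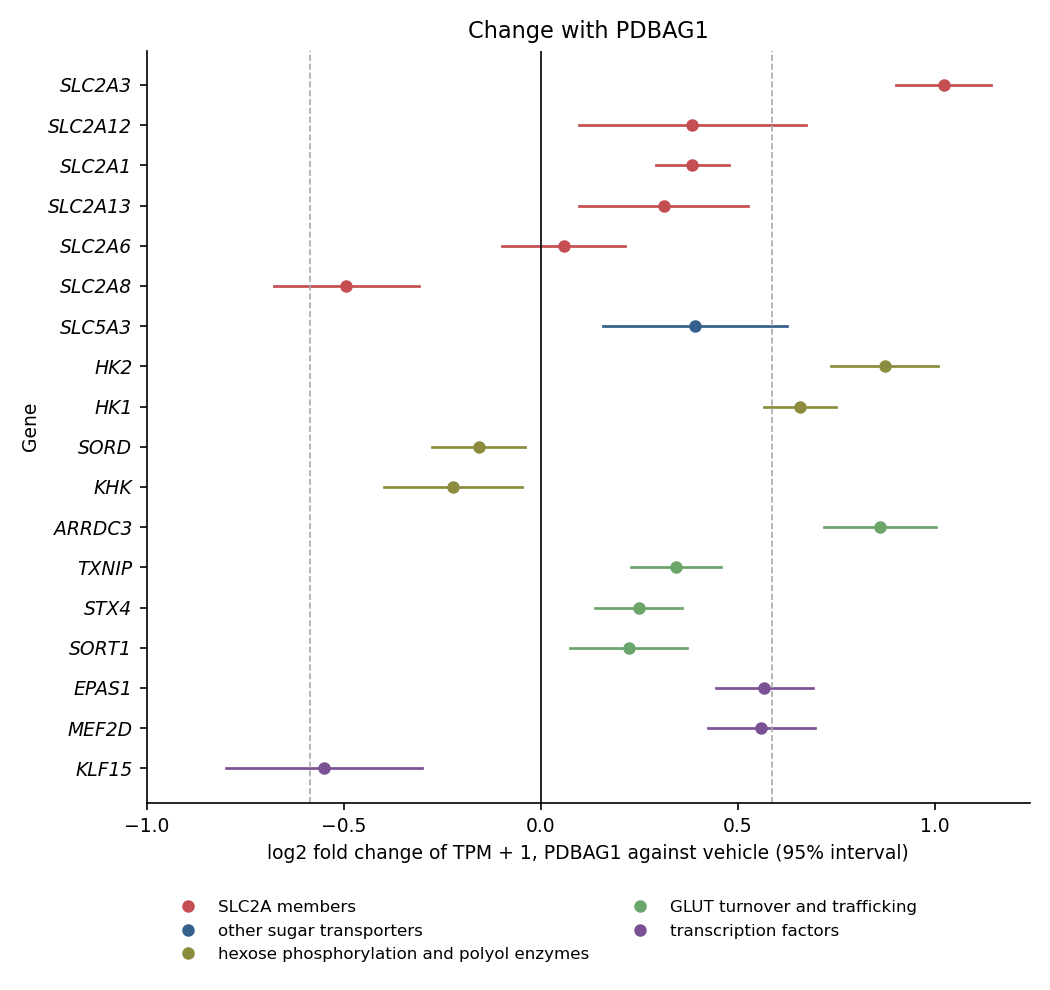
Log2 fold change of TPM + 1 (PDBAG1 against vehicle) with its 95% interval from limma, for the 6 tested SLC2A members and the companion genes, coloured by list, with dashed lines at a 1.5-fold change. SLC2A3, HK2, ARRDC3 and HK1 lay beyond the upper line, and SLC2A8 at -0.49 was the lowest of the transporters.

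The genes whose log2(TPM + 1) followed SLC2A1 most closely over the 6 libraries were CD276, ANKRD9, AP5Z1, TMEM63B and TMEM71, with Pearson's r of 0.997 to 1.000. With 2 groups this likeness is mainly a like difference between groups, and 933 of the genes tested had an r over 0.95. CD276, an immune checkpoint molecule of the B7 family, averaged 27.3 TPM in vehicle libraries and 44.04 TPM in PDBAG1 libraries.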

How the data were processed

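RNA-seq of MDA-MB-231 cells was analysed in 3 vehicle and 3 PDBAG1 libraries, grouped by their titles. According to the methods, the authors made mRNA libraries, used a BGISEQ-500 sequencer, aligned filtered reads to GRCh38 by HISAT2 and expressed gene counts as FPKM. The deposited values are TPM, per the file headers, with the same sum in each library over 17631 genes. The submitters' processing notes list HISAT2 2.0.4, Bowtie2 2.2.5 and RSEM 1.2.12. The step to TPM and the annotation release are not given in the sources used here. TPM keeps no depth, so precision rests on the 3 libraries per group.

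Genes with at least 1 TPM in 3 or more libraries (12582) were tested as log2(TPM + 1) with limma 3.58.1 in R 4.3.3 (lmFit, eBayes with a trend), two-sided, with Benjamini-Hochberg adjustment. The pseudocount understates the change of low genes. The steps were checked on simulated data. Sums and shares over members had no test. Members and lists were chosen with earlier results of these data known. The text names each member, and from each list the called genes and up to 3 others past the threshold with the largest change. Positions and canonical transcripts are from GENCODE v44 (GRCh38), matched for all 9 members by Ensembl identifier. The alternatives were other filters, a pseudocount of 0.1, 2 scalings, a replicate block, a fold limit of 2, other sums, and each library left out.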

Additional observations from a re-analysis of the deposited data

How the results depend on the processing

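SLC2A1, SLC2A3, SLC2A6 and SLC2A8 kept their direction and their side of the adjusted p threshold under each filter, pseudocount, scaling, block and left-out library. The number of members past the threshold, 5, was 3 without the expression filter and 3 under quantile normalisation, and 3 to 5 with each library left out. SLC2A12 missed the threshold without the filter, with median-of-ratios scaling and with quantile normalisation (log2 fold change 0.38, 0.36 and 0.29). SLC2A13 missed it without the filter (0.31) and with quantile normalisation (0.20). Over left-out libraries their log2 fold changes ranged from 0.26 to 0.48 and from 0.24 to 0.36. The cause was not tested. Under quantile normalisation 2 members were past the 1.5-fold limit, and at a fold limit of 2 the count was 1. Over all genes 420 were called (360 higher), 80 (73 higher) at a fold limit of 2, and 630 (530 higher) with a pseudocount of 0.1.

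Whether same-numbered libraries were prepared together is not given in the sources used here. Correlations of their deviations from the group means were -0.21, 0.01 and -0.08. With the replicate number as a block 427 genes were called, SLC2A13 was no longer past the threshold (0.31, limma adjusted p = 0.0538), and 2 genes of the hexose list passed in place of 4.

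The log2 ratio of the summed TPM, 0.42, was 0.39 with median-of-ratios scaling. Under quantile normalisation the change in share was -0.28 percentage points for SLC2A1, -2.91 for SLC2A8 and -0.26 for SLC2A13, against -1.55, -2.64 and -0.06. Without the filter no other sugar transporter passed (0, median log2 fold change -0.053). With each library left out, 0 to 1 of them, 2 to 3 hexose genes and 4 to 8 trafficking genes passed. The unknown depth limits statements on the 3 members under 1 TPM.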

Other observations

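Beside MEF2D, 2 further MEF2 genes of the list, picked after their values were seen, were higher with PDBAG1. MEF2A measured 22.5, 20.1 and 19.9 TPM with vehicle and 27.9, 30.2 and 32.1 TPM with PDBAG1, a log2 fold change of 0.51 (adjusted p in limma = 8.79e-05). MEF2C measured 2.24, 1.89 and 2.05 TPM with vehicle and 3.26, 3.52 and 3.12 TPM with PDBAG1, a log2 fold change of 0.49 (adjusted p in limma = 0.00197). In both genes every PDBAG1 library lay above every vehicle library, as in 27.2% of all genes tested. MEF2 proteins are known as activators of SLC2A4 in muscle, and SLC2A4 was at 0.727 TPM on average in both groups.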
